A study of Mus musculus with 82 samples.

Results

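Accessible chromatin that lay inside H3K27me3 domains and carried no H3K27ac or H3K4me3 peak was followed from young to old hematopoietic stem cells (HSCs), the self-renewing source of every blood lineage. Of the 127695 consensus regions of the ATAC-seq, 19625 (15.4%) shared at least 1 base with an H3K27me3 domain and none with an H3K27ac or H3K4me3 peak, and these are called domain regions here. Membership among them used the chromatin tables only, and no read count entered it. The consensus regions themselves were peaks that the authors called in young and old samples and merged. Accessibility at either age thus decided which regions exist. YHSCs came from male C57BL/6J mice of 3 to 4 months and OHSCs from male C57BL/6J mice of 24 to 26 months, all untreated and sorted from bone marrow as lineage-negative Sca-1+ Kit+ CD34- Flk2- CD150+ cells. The ATAC-seq comparison used 4 young and 4 old libraries, the mRNA-seq comparison 4 young and 8 old libraries, and the H3K27me3 signal 2 young libraries. According to the methods, young mRNA samples were pools of mice and each old one was a single mouse, and the 2 ages came from different suppliers, so neither pooling nor supplier can be told apart from age. Further old ATAC-seq samples of the study are not analysed here, and the sources tie no library to a mouse, so p-values measure the spread between these libraries. The tables of domains and peaks hold columns of both ages.

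H3K27me3 is the trimethylation of lysine 27 on histone H3 that Polycomb repressive complex 2 writes through its catalytic subunits EZH2 and EZH1. It spreads over broad domains at genes that are kept silent in a lineage, above all genes for developmental transcription factors, morphogens and neuronal proteins, and it excludes acetylation of the same residue. ATAC-seq reads open DNA, since the Tn5 transposase inserts adapters where nucleosomes leave it free. An open region inside such a domain can be a poised enhancer, a site held open by the insulator protein CTCF, or an element bound by a factor that tolerates the domain.

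The domain regions were small and weak. Their median width was 360 bases, against 501 over all consensus regions, and the median level per library, as read counts scaled to library size (CPM), was 1.49 to 1.58 in the young libraries and 1.65 to 1.74 in the old ones. Domain regions above 1.5 CPM in at least 4 libraries had a median width of 523 bases and a young median of 2.93 CPM. Such regions without any profiled mark (532 bases, 2.95 CPM) or with H3K36me3 alone (488 bases, 2.90 CPM) were alike. By GENCODE annotation 11532 were intergenic, 7058 intronic, 595 exonic and 440 at promoters, and 40.9% lay more than 50 kb from the nearest protein-coding start. They fell into 9930 of the 55820 H3K27me3 domains, and 5990 of these domains held 1 of them while 133 held 10 or more. The domains that held them had a median length of 24 kb (4 kb over all domains) and a median H3K27me3 signal (mean read height in libraries scaled to equal depth) of 0.476 in young replicate 1 and 0.484 in young replicate 2, against 0.380 and 0.385 over all domains. In all, 428 domain regions (2.18%) also lay in an H3K36me3 domain, the mark of transcribed gene bodies.

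The sequences of 10 domain regions are shown in the mm10 genome, 300 bases around the middle of each region on the plus strand, 5′ to 3′. Capitals mark every match, on either strand, to one of 10 motifs. These were TGANTCA for AP-1 and BATF, TGTGGTTT for RUNX, AGATAA for GATA, GAGGAAGT for PU.1, CCGGAAGT for other ETS factors, TTGCNNAA for C/EBP, TTCNNNGAA for STAT, TGACAG for MEIS, a repeat of GAAA after 2 free bases for IRF, and the CTCF core consensus. The PU.1 and ETS strings share their last 6 letters, and other strings can overlap only in part. A match is a string of letters and not evidence that a factor bound there.

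Of the regions that opened most with age, the one with the largest change and those with an AP-1, RUNX or GATA match are printed, since these motifs were more frequent in gained than in other domain regions. The Tmem132b window (chr5:125612520-125612819) held none of the motifs. The Serpina1f window (chr12:103700115-103700414) held an AP-1 match. The Adam23 window (chr1:63517897-63518196) held MEIS, RUNX and AP-1 matches in that order. The Nr2f2 window (chr7:70274240-70274539) held a GATA match and the window near Lrtm1 inside Cacna2d3 (chr14:29055427-29055726) a RUNX match.
Tmem132b: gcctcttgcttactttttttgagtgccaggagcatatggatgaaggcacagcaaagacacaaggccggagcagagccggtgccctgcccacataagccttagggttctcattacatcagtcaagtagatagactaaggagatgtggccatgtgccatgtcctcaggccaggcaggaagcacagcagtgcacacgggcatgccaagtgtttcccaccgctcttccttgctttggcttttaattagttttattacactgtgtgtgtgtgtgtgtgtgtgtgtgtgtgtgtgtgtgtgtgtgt
Serpina1f: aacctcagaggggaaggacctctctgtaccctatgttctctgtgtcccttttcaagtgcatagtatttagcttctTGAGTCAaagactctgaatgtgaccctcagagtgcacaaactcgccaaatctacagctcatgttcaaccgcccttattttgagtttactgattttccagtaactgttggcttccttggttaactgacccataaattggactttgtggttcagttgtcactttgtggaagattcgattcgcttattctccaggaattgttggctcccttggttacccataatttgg
Adam23: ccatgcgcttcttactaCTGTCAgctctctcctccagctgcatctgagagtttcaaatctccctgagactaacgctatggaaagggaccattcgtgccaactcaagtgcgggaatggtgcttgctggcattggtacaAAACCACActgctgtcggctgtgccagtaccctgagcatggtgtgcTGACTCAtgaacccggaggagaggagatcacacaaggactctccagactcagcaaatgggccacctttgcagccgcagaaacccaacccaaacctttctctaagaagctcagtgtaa
Nr2f2: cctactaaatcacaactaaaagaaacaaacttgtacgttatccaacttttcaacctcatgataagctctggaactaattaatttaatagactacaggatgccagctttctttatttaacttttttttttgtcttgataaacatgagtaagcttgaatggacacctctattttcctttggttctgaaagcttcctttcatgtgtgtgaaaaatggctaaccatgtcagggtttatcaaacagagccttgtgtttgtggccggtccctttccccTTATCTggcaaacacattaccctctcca
Lrtm1: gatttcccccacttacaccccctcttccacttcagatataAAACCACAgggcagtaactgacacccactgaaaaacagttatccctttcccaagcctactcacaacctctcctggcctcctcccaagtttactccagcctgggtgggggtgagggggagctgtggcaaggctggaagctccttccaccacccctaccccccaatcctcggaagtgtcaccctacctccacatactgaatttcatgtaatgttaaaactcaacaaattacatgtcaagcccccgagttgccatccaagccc

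Of the regions that closed most with age, the windows near Edn3 (chr2:174869012-174869311), in Zscan18 (chr7:12792712-12793011) and in Adgra2 (chr8:27093407-27093706) were chosen for an AP-1, RUNX or GATA match alone. Edn3 and Adgra2 held an AP-1 match, and Zscan18 a PU.1 match followed by a RUNX match.
Edn3: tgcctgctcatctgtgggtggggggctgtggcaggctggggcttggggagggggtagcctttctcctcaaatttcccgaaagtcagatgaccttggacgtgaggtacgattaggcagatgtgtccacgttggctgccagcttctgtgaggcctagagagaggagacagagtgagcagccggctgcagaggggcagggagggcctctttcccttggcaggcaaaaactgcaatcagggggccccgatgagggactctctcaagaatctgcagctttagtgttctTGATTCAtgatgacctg
Zscan18: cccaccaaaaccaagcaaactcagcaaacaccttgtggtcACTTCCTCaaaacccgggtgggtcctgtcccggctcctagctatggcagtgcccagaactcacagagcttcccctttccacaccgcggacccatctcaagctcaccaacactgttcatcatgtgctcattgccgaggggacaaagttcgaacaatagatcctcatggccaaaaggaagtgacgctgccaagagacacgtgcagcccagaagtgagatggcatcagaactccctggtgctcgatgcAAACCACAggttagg
Adgra2: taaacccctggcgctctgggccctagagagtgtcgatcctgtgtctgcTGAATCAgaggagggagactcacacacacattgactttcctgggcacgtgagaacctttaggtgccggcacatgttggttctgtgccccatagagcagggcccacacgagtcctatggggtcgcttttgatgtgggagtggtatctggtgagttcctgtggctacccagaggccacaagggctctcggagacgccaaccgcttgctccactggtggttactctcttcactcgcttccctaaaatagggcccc

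The last pair stands for domain regions with a CTCF match, which were seldom called. They are the most accessible matched regions, chosen after their values were seen. The window near Ntm (chr9:30137845-30138144) held a MEIS and a CTCF match and the window at the Csmd3 promoter (chr15:48792848-48793147) a CTCF match.
Ntm: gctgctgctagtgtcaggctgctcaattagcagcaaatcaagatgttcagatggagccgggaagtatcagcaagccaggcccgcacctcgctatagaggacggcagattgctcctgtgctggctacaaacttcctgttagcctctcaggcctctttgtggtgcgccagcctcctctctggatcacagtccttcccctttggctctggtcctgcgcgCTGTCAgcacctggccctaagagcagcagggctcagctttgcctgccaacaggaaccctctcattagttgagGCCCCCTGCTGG
Csmd3: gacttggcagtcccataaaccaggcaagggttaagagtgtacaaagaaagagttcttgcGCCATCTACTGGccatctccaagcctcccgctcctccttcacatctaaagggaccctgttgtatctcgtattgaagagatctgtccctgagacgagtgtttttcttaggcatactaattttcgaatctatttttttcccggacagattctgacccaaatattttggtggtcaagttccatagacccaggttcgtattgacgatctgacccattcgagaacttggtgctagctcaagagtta

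OHSCs put a larger share of their ATAC-seq reads into domain regions. Of 15427933 to 26260337 counted reads per young library and 20033166 to 25920194 per old library, domain regions held 4.82% ± 0.122 in YHSCs (SD, n = 4) and 5.33% ± 0.0832 in OHSCs (SD, n = 4). All 4 old libraries, from 5.23% to 5.43%, lay above all 4 young libraries, from 4.67% to 4.95% (exact permutation test, two-sided, p = 0.0286, the smallest that 4 against 4 libraries can give, and 0.0476 after Benjamini-Hochberg adjustment over 5 tests). Relative to the reads at H3K4me3 peaks outside the domains, the ratio went from 0.0883 to 0.104, and relative to regions of H3K27me3 domains with an active mark (H3K27ac or H3K4me3) from 0.426 to 0.475, each with p = 0.0286 by the same exact permutation test (adjusted 0.0476). Relative to regions without any profiled mark, the young ratio was 0.298 ± 0.0157 and the old ratio 0.299 ± 0.00705 (SD, n = 4; exact permutation test, p = 0.971), and relative to distal H3K27ac regions 0.676 ± 0.0213 and 0.660 ± 0.00545 (p = 0.171, exact permutation test). Domain regions thus gained reads over H3K4me3 regions, and no difference from the unmarked and distal H3K27ac regions was detected.

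Region by region, gains outnumbered losses about as they did elsewhere. The quasi-likelihood test of edgeR was run on regions above 1.5 CPM in at least 4 libraries, which left 10698 domain regions among 89245 regions, and calls needed more than 1.5-fold change with an edgeR adjusted p under 0.01. Of the tested domain regions, 1453 (13.6%) gained accessibility in OHSCs and 364 (3.4%) lost it, where 10.1% of all tested regions gained and 2.9% lost. Another 8881 were not called, and 8927 were too weak to be tested, with a median width of 227 bases and a median level of 0.824 CPM. The filter takes part in these counts, since 504 tested regions exceeded 1.5 CPM in the 4 old libraries and in no young library, and 94 in the 4 young libraries and in no old one. Without the filter all 19625 could be tested, of which 2284 gained and 703 lost. Leaving out 1 old library lowered the gained count to as few as 903 (without old replicate 6), and leaving out 1 young library the lost count to as few as 223 (without young replicate 1), where the filter of 4 libraries can no longer be met by that age alone. The median log2 fold change was 0.049 over tested domain regions and -0.011 over all tested regions, and after a correction for GC content the former was -0.011, so no overall direction is given for these regions.

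The share that gained varied between chromatin classes. It was 16.1% in regions without a profiled mark and 16.4% in H3K27ac regions without H3K4me3 or H3K27me3, both above the 13.6% of domain regions. Regions of H3K27me3 domains with an active mark gained in 5.89% of cases and H3K4me3 regions outside the domains in 2.35%. Losses lay closer together, from 1.94% at H3K4me3 regions to 3.95% in regions with H3K36me3 alone. At the border of the definition, the 371 tested regions with most of their length outside a domain gained in 12.9% of cases, and the 1722 unmarked regions within 1 kb outside a domain in 13.5%.

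**Figure D1:**
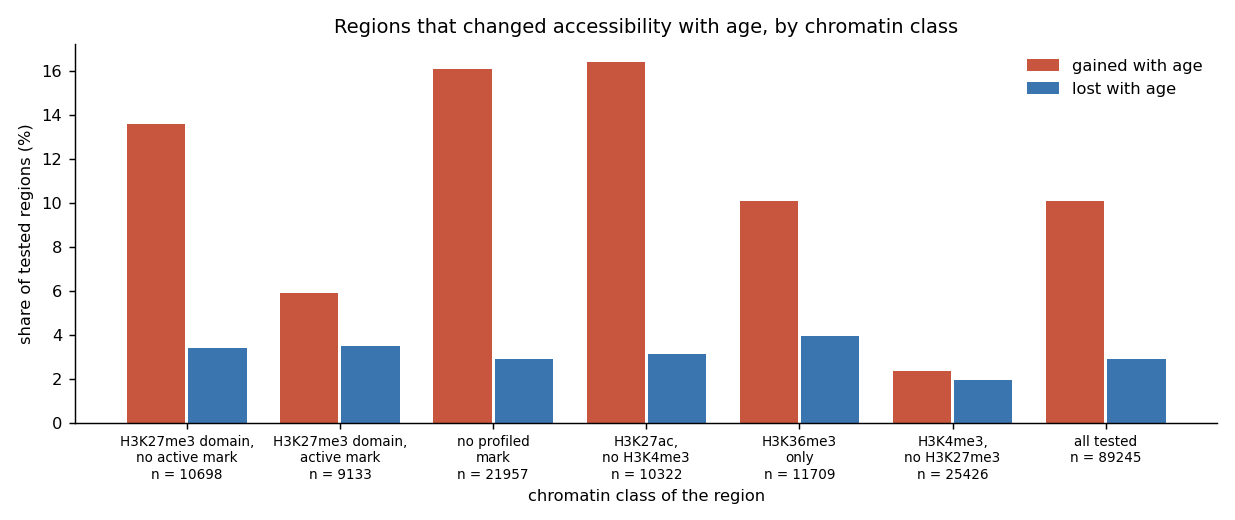
Bars give the share of tested regions (%) that gained (red) or lost (blue) accessibility in OHSCs for each chromatin class, with the number tested under each. Regions in H3K27me3 domains without an active mark gained in 13.6% of cases, below unmarked and distal H3K27ac regions and above regions with H3K4me3.

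Gained domain regions had a median of 1.59 CPM in YHSCs, against 2.93 CPM over all tested domain regions, and 3.80 CPM in OHSCs. Of the 1453, 471 exceeded 1.5 CPM in no young library, a level that the filter sets, since such regions could enter only through the 4 old libraries, and 189 rose more than 4-fold. Lost domain regions had a median of 3.24 CPM in YHSCs and 1.73 CPM in OHSCs, and 5 of the 364 fell more than 4-fold.

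The region with the largest gain lay in an intron of Tmem132b, a neuronal transmembrane protein, at chr5:125612447-125612891. It held 0.119, 0.130, 0.154 and 0 CPM in the young libraries and 2.65, 1.66, 1.83 and 3.01 CPM in the old ones. The log2 fold change was 4.47 (standard error 0.407). The largest changes were picked among calls in which young and old libraries stood apart, so that separation is part of the choice. The regions at Tmem132b, Syt9, Serpina1f, Adam23, Lrtm1 and Chd6 passed the CPM filter only through the old libraries, and the largest losses only through the young ones. Of the regions named further on, the same holds for those with the largest gain at Wnt5a, Cdh20, Cdh4, Ryr3, Meis2, Osmr and Il7r, those at Kcnb2 and Gabra4, and the lost ones at Csf1r and Myh3. For all of these the change is a description without a test. With so few young reads the size of such a fold change depends on the small count that edgeR adds to each library. Other named regions, such as those at Rbfox1 and Nr2f2, exceeded 1.5 CPM in some but fewer than 4 libraries of the lower age. Without the higher age they would not have been tested either. Of the 6 tested domain regions whose nearest gene was Tmem132b, 4 gained, and the one nearest the start did not change beyond the spread (5.00 ± 0.527 against 4.66 ± 0.349 CPM, SD, n = 4, edgeR adjusted p = 0.598).

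The regions at Syt9, Rbfox1 and Nr2f2 were also among the 8 largest gains. Syt9, a calcium sensor of vesicle release, had 4 tested domain regions and all 4 gained, the largest 48.5 kb upstream (chr7:107321979-107322598) with 0.514, 0, 0.461 and 0.0762 CPM in YHSCs and 6.34, 4.24, 2.86 and 6.02 CPM in OHSCs. An intronic region of Rbfox1, a neuronal splicing factor, at chr16:6321170-6322128 rose from 0.989, 1.69, 2.11 and 1.22 CPM to 23.4, 24.9, 22.4 and 21.5 CPM (log2 fold change 3.94, standard error 0.134). Unlike Tmem132b, this region became one of the stronger domain regions of OHSCs. The region downstream of Nr2f2, the orphan nuclear receptor COUP-TFII, at chr7:70273878-70274900 held 1.46, 1.69, 2.65 and 1.52 CPM in YHSCs and 26.3, 34.3, 24.2 and 24.6 CPM in OHSCs. It lay 86.2 kb from the nearest annotated start of the gene, and 8 of the 14 tested domain regions nearest to Nr2f2 gained while none was lost.

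The other large gains were in an intron of Adam23, a disintegrin of the nervous system (chr1:63517681-63518412; 0.596 ± 0.174 to 8.90 ± 1.82 CPM), upstream of the protease inhibitor gene Serpina1f (chr12:103699849-103700680; 0.309 ± 0.138 to 4.78 ± 1.24 CPM), inside the calcium channel subunit gene Cacna2d3 (chr14:29055313-29055839; 0.116 ± 0.0832 to 1.89 ± 0.363 CPM), and 289 kb upstream of the chromatin remodeler gene Chd6 (chr2:161397988-161398673; 0.315 ± 0.163 to 4.38 ± 1.41 CPM; SD, n = 4 per age throughout). Their log2 fold changes lay between 3.78 and 3.95. The gained regions with the highest mean level changed less on the log2 scale. In an intron of Ank3, which encodes the ankyrin of the axon initial segment (chr10:69611625-69612364), accessibility was 13.6, 11.4, 11.9 and 13.8 CPM in YHSCs and 30.2, 34.0, 29.6 and 37.3 CPM in OHSCs. The Me3 intron (chr7:89663971-89665034; log2 fold change 1.41) and the region in the gene desert nearest to Cntnap5a (chr1:114039352-114040208; log2 fold change 1.17) also rose.

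**Figure D2:**
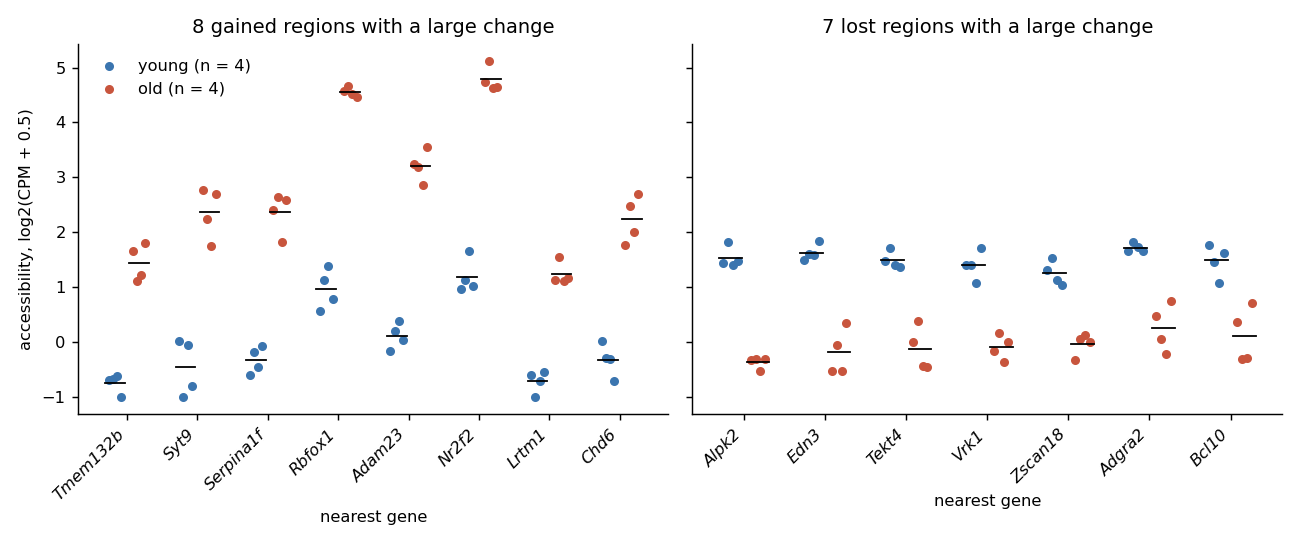
Points give log2(CPM + 0.5) of the 4 young (blue) and 4 old (red) libraries and black lines their mean, for 8 gained (left) and 7 lost (right) domain regions with the largest fold changes among those whose libraries did not overlap. Lrtm1 is the nearest start to a region in a Cacna2d3 intron. Gained regions rose from young means of 0.100 to 1.83 CPM to old means of 1.89 to 27.3 CPM, while lost regions fell from means of 1.91 to 2.80 CPM to means of 0.742 CPM or less.

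Among losses, the largest was in an intron of the kinase gene Alpk2 on chromosome 18, with 2.22, 3.05, 2.15 and 2.28 CPM in YHSCs and 0.3, 0.309, 0.199 and 0.313 CPM in OHSCs (log2 fold change -3.09, standard error 0.305). Near Edn3, which encodes the peptide endothelin 3 (chr2:174868882-174869441), the libraries held 2.33, 2.53, 2.50 and 3.08 CPM against 0.2, 0.463, 0.199 and 0.782 CPM. A region in Tekt4, a gene of the sperm flagellum (chr17:25462551-25462873), went from 2.33 ± 0.315 to 0.446 ± 0.273 CPM (SD, n = 4). Another 4 of the largest losses were 357 kb downstream of a Vrk1 start, in Zscan18, in Adgra2 and upstream of Bcl10, with log2 fold changes from -2.26 to -1.90. The lost regions with the highest level were in Ptprn2 (18.3 ± 1.22 to 11.6 ± 1.37 CPM), near Zfp53 (12.6 ± 1.46 to 7.19 ± 0.792 CPM) and in Tead4 (11 ± 0.357 to 6.50 ± 0.681 CPM; SD, n = 4). None of these 3 fell by more than 0.82 on the log2 scale, and those in Ptprn2 and Tead4 missed the fold threshold once the regional shift described further on was taken out (log2 fold changes -0.39 and -0.58).

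Some domains held several changed regions, and those described were picked for having the most calls. Gains occurred in 1171 domains and losses in 325, and of the 216 domains with 2 or more called regions 169 held only gains, 24 only losses and 23 both. The 705 kb domain over Kirrel3, a synaptic adhesion molecule (chr9:34282000-34986999), had 9 gains among 17 tested regions. The strongest, in an intron of Kirrel3 (chr9:34714851-34715712), held 2.97, 2.46, 4.11 and 3.47 CPM in YHSCs and 15.8, 16.4, 12 and 10.7 CPM in OHSCs. The 641 kb domain over Camta1, a calmodulin-binding transcription factor (chr4:151074000-151714999), had 7 gains of 15. In the 371 kb domain around Adam23 (chr1:63187000-63557999), 6 of 8 tested regions gained, and the 2 that did not lay 8.07 kb and 15.4 kb upstream of the start. No tested region of these 3 domains was lost.

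The domain with the most losses was the 411 kb domain around Myh3 and Myh13, myosin heavy chains of embryonic and specialised muscle (chr11:67068000-67478999), where 6 of 8 tested regions were lost. Their median log2 fold change was -0.77, and the one with the largest fall (chr11:67112077-67112349) held 2.69, 2.46, 2.34 and 1.94 CPM in YHSCs and 1.10, 1.35, 1.35 and 1.13 CPM in OHSCs. A 128 kb domain inside the phosphatase gene Ptprn2, with Rapgef5 as the nearest start (chr12:117078000-117205999), lost 5 of 6, and the 26 kb domain of Adgra2, an adhesion receptor that acts with WNT7 (chr8:27076000-27101999), lost all 4. After the correction for the regional shift the log2 fold change of this Myh3 region was -0.56, which was not called, while the regions with the largest fall at Adgra2 and Rapgef5 were called. The Myh3 and Ptprn2 domains lie in 2 of the 19 windows with that shift, where the median log2 fold change of the other regions was -0.40 and -0.28.

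A part of the losses lay in stretches of the genome where the median accessibility of other regions was lower in OHSCs. On chromosomes 11, 12 and 19, 9.11%, 7.25% and 10.7% of tested domain regions were lost, against 1.72% to 5.26% on the other chromosomes. The other tested regions of chromosomes 11, 12 and 19 were lost in 8.39%, 5.3% and 8.02% of cases. In 19 of 488 windows of 5 Mb, on chromosomes 1, 5, 7, 11, 12 and 19, the median log2 fold change of the other regions was below -0.25, a limit set after the data were seen. There, 83 of 488 tested domain regions were lost (17%) and 31 gained, against 281 lost of 10210 elsewhere (2.75%). The 1640 H3K4me3 regions of these windows, which were among the regions that chose them, had a median log2 fold change of -0.37. The mRNA of the 1152 tested genes that start there had a median log2 fold change of 0.01, against 0.00 elsewhere. What lowered the accessibility of these stretches was not tested. With the shift of each 5 Mb window taken out, 1358 domain regions gained and 333 were lost in all, of which 1281 and 259 were also called without that correction, and 18 of the losses lay in the 19 windows.

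**Figure D3:**
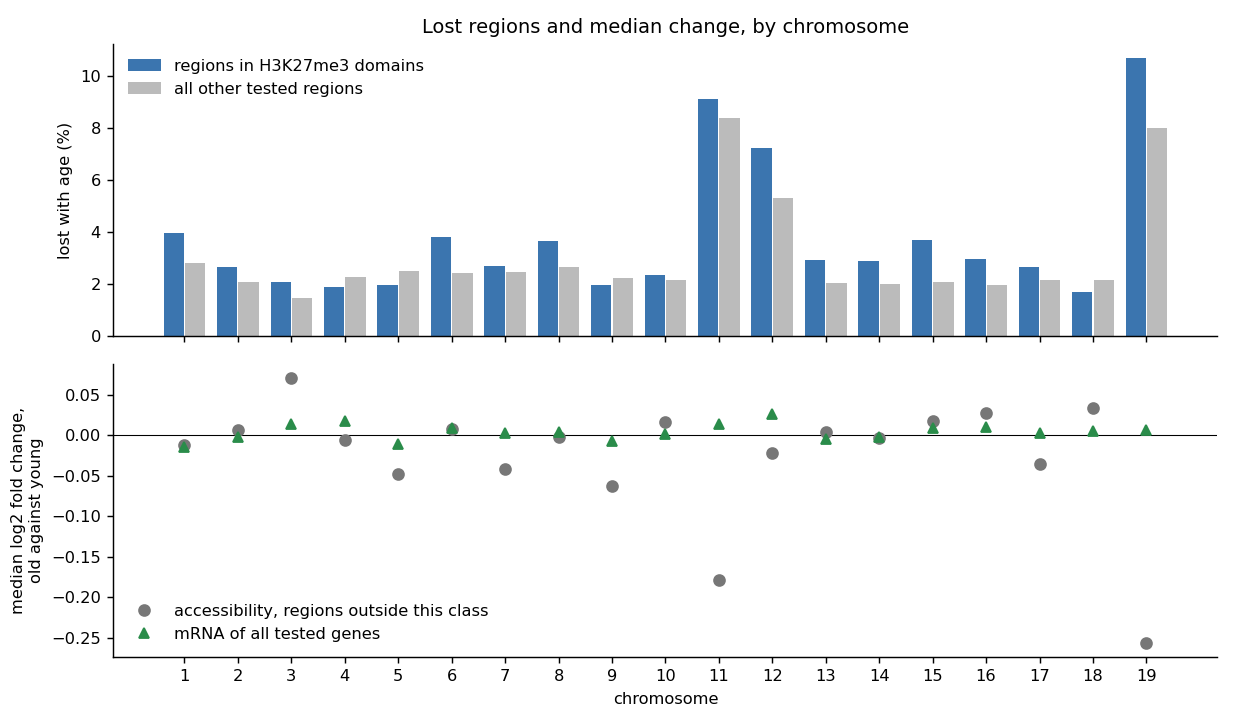
Upper bars give the share (%) of tested regions lost in OHSCs on each autosome, for domain regions (blue) and all other tested regions (grey). Lower points give the median log2 fold change of the accessibility of regions outside this class (circles) and of mRNA (triangles). Chromosomes 11, 12 and 19 stand above the rest in losses of both kinds, and on 11 and 19 accessibility fell in median while mRNA did not.

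Gained and lost domain regions differed in position and base composition. The share that gained was 7.51% up to 5 kb away from a protein-coding start, 10.6% at 5 to 50 kb, 18.8% at 50 to 500 kb and 32.8% in the 186 regions beyond 500 kb. It fell with GC content, from 18.5% in the lowest GC quartile to 7.17% in the highest, while losses rose from 1.4% to 5.57%. GC-rich and GC-poor DNA can be amplified unequally, and with GC content corrected per library the gained shares of these 2 quartiles were 14.3% and 8.17% and the lost shares 3.47% and 4.57%. The order by distance stayed the same after this correction, from 7.01% to 25.8%. Regions with over 12 CpG dinucleotides in 300 bases, the composition of CpG islands, gained in 2.25% and were lost in 5% of 400 cases (3.5% and 4% with GC corrected). Of 242 promoter regions 5.37% gained and 7.85% were lost (6.61% and 7.02% with GC corrected), whereas introns (15% gained, 3.85% lost) and intergenic DNA (13.4% and 2.95%) leaned to gains. The orders by GC content and distance were shared with the tested regions outside this class (calls without GC correction). There the median GC content was 44.7% in gained and 49.7% in uncalled regions, and highest in lost ones. More than 50 kb from a start lay 53.9% of the gained and 27.6% of the uncalled ones, and the smallest share of the lost ones.

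Gains were most frequent in long domains and had no steady order by H3K27me3 signal. In the quartile of regions in the longest domains, from 107 kb up, 18.6% gained and 2.6% were lost, against 11.3% and 4.87% in the quartile in domains of up to 19 kb. By the young H3K27me3 signal of the domain, the gained share was 13.7%, 14.9%, 14.5% and 11.2% from the lowest to the highest quartile. Losses were most frequent, at 5.38%, in the quartile with the lowest signal. Median domain signal was 0.522 for the 1171 domains with a gain, 0.484 for the 325 with a loss and 0.5 for those with tested regions of which none was called. Whether H3K27me3 itself changed at these regions was not analysed here. Wider regions also gained more often (23% in the widest quartile, 6.44% in the narrowest). Median width was 627 bases in gained and 499 in uncalled domain regions, against 686 and 714 in the regions outside this class.

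**Figure D4:**
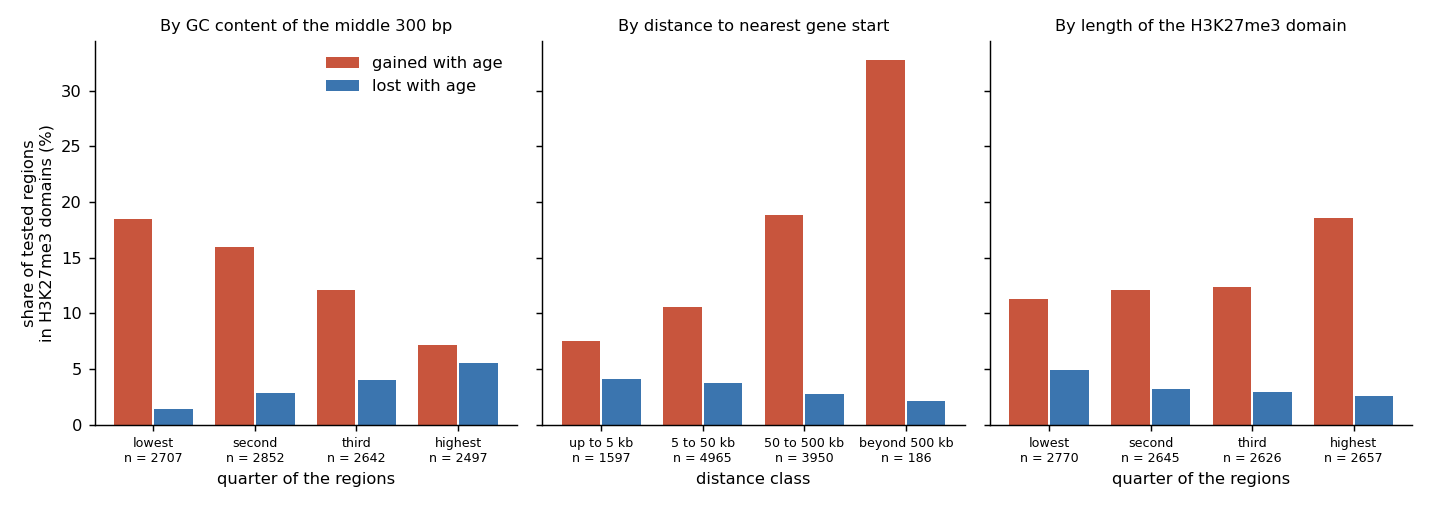
Bars give the share (%) of tested domain regions that gained (red) or lost (blue) accessibility, by quartile of GC content, by distance to the nearest protein-coding start and by quartile of domain length, with the number tested under each. Gains were more frequent in regions with low GC, far from starts and in long domains.

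Gained domain regions more often held an AP-1, RUNX or GATA string. AP-1 is the dimer of FOS and JUN proteins, RUNX factors and GATA factors direct blood development, and PU.1 is an ETS factor of myeloid and lymphoid cells. The AP-1 string was in 19.7% of gained, 10% of uncalled and 7.97% of lost domain regions, the RUNX string in 13.5%, 5.16% and 4.12%, and the GATA string in 19.9%, 14.2% and 11%. Over all 19625 domain regions the 3 strings were in 12.4%, 6.22% and 14.8%, and over all 127695 consensus regions in 12.7%, 5.69% and 14.8%. Of the 669 tested domain regions with a RUNX string 29.3% gained, against 12.5% of those without one. In the regions outside this class the same shares were 17.8% and 9.13%, so the order was shared with them. Within tertiles of GC content the RUNX shares were 37.3% against 16.8% (lowest), 26.5% against 13% and 17.7% against 7.77% (highest), and for AP-1 30.1% against 16.8%, 22.9% against 12.7% and 16.5% against 7.25%.

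The PU.1 string followed losses instead. It was in 12.6% of lost, 5.07% of uncalled and 5.44% of gained domain regions, and in 6.32% of all domain regions and 7.21% of all consensus regions. Of the 575 tested domain regions with it, 8% were lost, against 3.14% of those without it. In the regions outside this class the shares were 4.69% and 2.7%. Within tertiles of GC content the domain regions with and without it were lost in 2.27% against 1.57% (lowest), 10.3% against 3.14% and 10.9% against 4.79% of cases (highest). The C/EBP, STAT, MEIS and IRF strings differed less between the calls (for MEIS, 23.1% of gained, 20.8% of uncalled and 19.2% of lost regions), and the ETS string was in 46 tested domain regions in all, of which 8 gained.

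Domain regions held the CTCF consensus more often than other accessible chromatin, and those with it were seldom called. It was in 10.2% of the 19625 domain regions and 4.33% of all consensus regions, and among tested ones in 14.2% of domain regions, 6.45% of unmarked regions and 0.378% of distal H3K27ac regions. Of the 1519 tested domain regions with a CTCF match, 31 gained (2.04%) and 25 were lost (1.65%), against 15.5% and 3.69% of the 9179 without one. Outside this class the share gained was 1.46% with and 9.9% without a match. The Csmd3 promoter region printed with the sequences held 23.3, 22.8, 20.9 and 22.4 CPM in YHSCs and 21.9, 20.7, 20 and 21.7 CPM in OHSCs (log2 fold change -0.10, standard error 0.0718, edgeR adjusted p = 0.317). The Ntm region held 26.6, 22.5, 24.8 and 24 CPM in YHSCs and 31.5, 28.5, 35.2 and 33 CPM in OHSCs, which did not overlap (log2 fold change 0.37, standard error 0.0662, edgeR adjusted p = 1.04e-05). It rose, but by less than the fold threshold of a call.

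**Figure D5:**
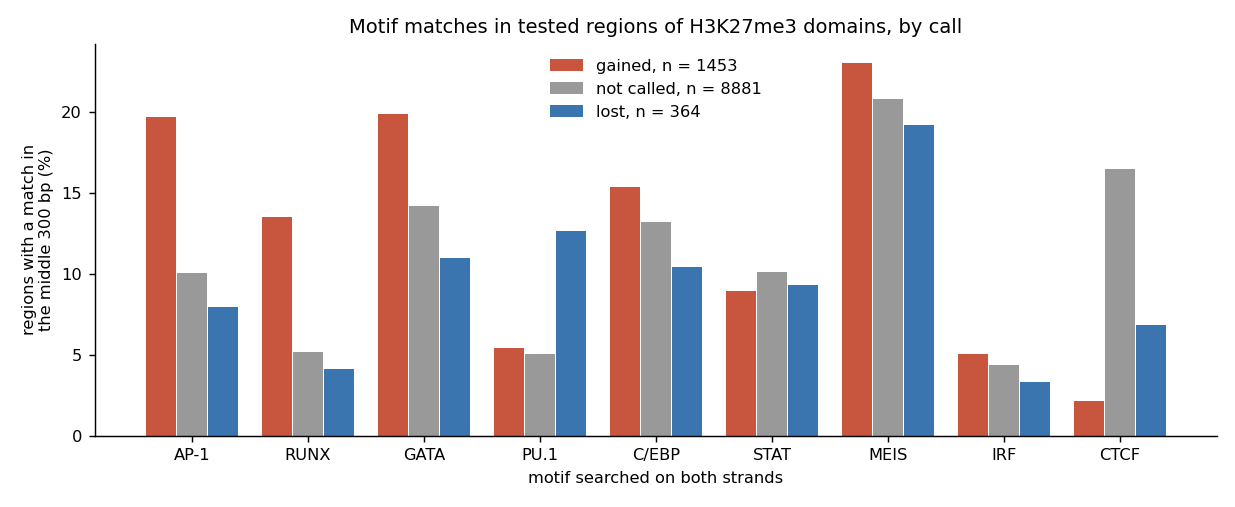
Bars give the share (%) of tested domain regions whose middle 300 bases held each motif on either strand, for gained (red), uncalled (grey) and lost (blue) regions. AP-1, RUNX and GATA matches were most frequent in gained regions, PU.1 in lost regions, and CTCF in uncalled regions at 16.5%.

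Assigned to their nearest gene, domain regions near adhesion and excitability genes gained most often among the lists with 10 or more tested regions. Of 116 tested domain regions nearest to cadherins and protocadherins, the calcium-dependent adhesion molecules, 37 gained (31.9%) and 1 was lost, and of 380 nearest to ion channels and synaptic genes 90 gained (23.7%) and 7 were lost, where 13.6% of all tested domain regions and 10.1% of all tested regions gained. Other accessible regions near the same lists gained in 81 of 327 and 299 of 1284 cases. In mRNA, 11 of 74 tested cadherin genes were higher and 1 lower, and 20 and 10 of 212 channel and synaptic genes, where 4.8% of all tested genes were higher and 2.77% lower. Cdh4, Cdh20 and Cdh2, classical and type II cadherins, had 3 gained regions each, with the largest log2 fold changes at 2.27, 2.96 and 2.83. Kcnb2, a delayed rectifier potassium channel, had 5 gains of 5 and Ryr3, a calcium release channel, 4 of 6.

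Lists of developmental control gained near the share of all domain regions. Near developmental transcription factors 43 of 346 tested regions gained and 10 were lost, near WNT, BMP, FGF and Hedgehog genes 22 and 6 of 164, and near axon guidance genes 15 and 6 of 132. They gained in 12.4%, 13.4% and 11.4% and were lost in 2.89%, 3.66% and 4.55% of cases. Of all tested domain regions 13.6% gained and 3.4% were lost, and of all tested regions 10.1% and 2.9%. The median log2 fold changes of these lists, in that order, were 0.06, 0.02 and 0.15, where the median of all tested domain regions was 0.049. Sox2, the pluripotency and neural factor, had 3 gains of 11, and the largest (chr3:34684869-34685737, 34.9 kb from its start) held 1.31, 2.33, 2.42 and 2.55 CPM in YHSCs and 9.23, 12.8, 9.10 and 10.8 CPM in OHSCs. Sox11 had 3 gains of 6, and Barx1, a homeobox gene, 3 losses of 5 with log2 fold changes from -0.71 to -0.60. The Barx1 call with the largest fall was lost in 7 alternative fits, the regional correction included. Wnt5a, a non-canonical WNT ligand, had 5 gains of 9, 4 of them up to 159 kb upstream in introns and 1 at 124 kb downstream. At the Hox genes, the body-axis regulators that are the best known Polycomb targets, 6 of 16 domain regions could be tested and none was called, with a median log2 fold change of -0.08.

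Blood lineage genes held few domain regions, and their counts are read against the 13.6% gained and 3.4% lost of all tested domain regions (10.1% and 2.9% of all tested regions). Of 24 tested near lymphoid genes 1 gained (near Il7r, the interleukin 7 receptor, log2 fold change 1.13) and 1 was lost (near Lef1, a factor of the WNT pathway, -0.89). Of 15 near granulocyte and monocyte genes 1 was lost (upstream of Csf1r, the receptor of macrophage colony-stimulating factor, 2.65 ± 0.370 to 0.787 ± 0.299 CPM, SD, n = 4), and of 6 near erythroid genes 1 (in Ank1, the red cell ankyrin, -0.67). The Lef1 call was lost without young replicate 4 (-0.78) or old replicate 8 (-0.66), and the Ank1 call without old replicate 6 (-0.57) or 8 (-0.58). None of 5 near megakaryocyte genes was called. In the mRNA-seq the summed level of 6 B cell markers was 82.3 to 151 CPM in YHSCs and 33.2 to 40.9 CPM in OHSCs, and that of 6 megakaryocyte markers 181 to 216 CPM and 311 to 393 CPM. The 6 erythroid markers summed to 18.5 to 21.8 CPM and 29.1 to 190 CPM, with 4 higher and 1 lower, and the 6 granulocyte and monocyte markers to 4.93 to 208 CPM and 4.11 to 90.5 CPM, with 1 lower. Over the longer gene lists, 4 of 19 tested erythroid genes were higher and 6 lower, and of 26 granulocyte and monocyte genes 3 and 3. Of 30 lymphoid genes 1 was higher and 11 lower, and of 22 megakaryocyte genes 6 and 3. Of all tested genes 4.8% were higher and 2.77% lower. All 6 B cell markers were lower, 2 megakaryocyte markers were higher and 1 lower, and none of 6 T cell markers was called (16 to 17.9 CPM and 11 to 18.5 CPM). The 8 HSC markers summed to 3782 to 3839 CPM and 3447 to 3957 CPM, and no marker of these lists was at 0 in all libraries. In such bulk samples fewer cells of a type and less RNA per cell cannot be told apart, and the part of other cells in the accessibility of these regions was not tested.

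HSC aging signature genes, whose mRNA is known to rise in old HSCs, had 9 gains (20%) and no loss among 45 tested domain regions, where 13.6% of all tested domain regions gained and 3.4% were lost. Other accessible regions near the same genes gained in 107 of 485 cases and were lost in 8. That list was put together from knowledge of HSC aging, so its direction is not independent. Upstream of Clu, which encodes clusterin, the region at chr14:65965471-65965774 held 1.62, 1.75, 1.54 and 1.37 CPM in YHSCs and 5.14, 3.82, 4.65 and 5.71 CPM in OHSCs. Osmr, the oncostatin M receptor, and Meis2, a homeobox gene, had 2 gains each, of 6 and 12 tested. The mRNA of Meis2 was not called here (log2 fold change 0.38, edgeR adjusted p = 0.083). Of the HSC identity genes, 1 of 4 regions near Mecom gained (3.16 ± 0.600 to 7.16 ± 0.915 CPM, SD, n = 4) and 1 of 2 near Mllt3 (2.42 ± 0.457 to 3.66 ± 0.782 CPM), the latter close to the limit at an edgeR adjusted p of 0.0097. The Mllt3 region lost its call in 9 of the alternative fits.

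The mRNA of the nearest genes was then compared, in libraries of 20475764 to 24122404 counted reads from YHSCs and 22175623 to 24654742 from OHSCs. Many genes whose start was within 100 kb of a domain region were little expressed. Of the 4706 genes nearest to tested domain regions, 45.6% lay below 1 CPM of mRNA in YHSCs (CPM is not scaled by gene length). The share was close, at 42.5%, for regions of H3K27me3 domains with an active mark. It was 30.1% for unmarked, 21.4% for distal H3K27ac and 12.2% for H3K4me3 regions. Of the 709 genes nearest to gained domain regions 473 could be tested by edgeR, and 54 were higher (11.4%) and 20 lower (4.23%) in OHSCs, where 4.8% of all 21522 tested genes were higher and 2.77% lower. Of the 198 tested genes nearest to lost regions 10 were higher (5.05%) and 25 lower (12.6%). Around uncalled domain regions 7.44% of 3106 were higher and 5.12% lower. Most genes beside a changed region were therefore not called, and the medians of the mRNA log2 fold change were -0.01 for genes near gains, -0.07 near losses and -0.02 near uncalled regions. Within 20 kb, 33 of 215 genes near gains were higher and 10 lower, and near losses 6 and 17 of 114.

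In the mm10 genome Kcnb2 spans chr1:15287254-15723750, and its mRNA was 0.335, 1.07, 0.737 and 1.04 CPM in YHSCs and 8.73 to 25.1 CPM (median 17.3) in the 8 old libraries, which did not overlap (log2 fold change 4.46, standard error 0.370, edgeR adjusted p = 2.74e-06). All 5 tested domain regions were intronic and higher in OHSCs, with log2 fold changes from 2.26 to 3.26, and entered the test only through the old libraries. The one with the largest change (chr1:15534041-15535008) held 0.396, 1.36, 0.922 and 0.571 CPM in YHSCs and 6.59, 8.91, 7.79 and 6.37 CPM in OHSCs. Sbspon, a secreted somatomedin B and thrombospondin domain protein at chr1:15853862-15892722, lies beside it. Its mRNA was 2.30 to 3.66 CPM in YHSCs and 63.0 to 101 CPM in OHSCs (log2 fold change 4.90, edgeR adjusted p = 9.55e-10), and the intronic region at chr1:15889641-15890039 held 3.84, 2.07, 3.03 and 3.58 CPM in YHSCs and 6.34, 6.98, 7.00 and 6.10 CPM in OHSCs.

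Gabra4, a subunit of the GABA-A receptor (chr5:71569749-71658308), had 2 tested domain regions, both intronic and higher in OHSCs, which entered the test only through the old libraries (0.653 ± 0.388 to 2.90 ± 0.867 CPM and 0.545 ± 0.101 to 2.20 ± 0.552 CPM, SD, n = 4). Its mRNA rose from 0.506 to 0.753 CPM in YHSCs to 8.60 to 13.7 CPM in OHSCs (log2 fold change 4.2, standard error 0.194, edgeR adjusted p = 9.71e-14). The mRNA of Osmr rose by 3.40 on the log2 scale, that of Clu by 2.36, of Tmem132b by 1.92, of Wnt5a by 1.82 and of Syt9 by 1.58, all called by edgeR. For Tmem132b the adjusted p was 0.009 and the highest old library, at 25.2 CPM, stood apart from the rest at 5.71 to 12.8 CPM. With replicate number as a block in the fit, Tmem132b was not called (edgeR adjusted p = 0.122).

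Other named genes showed opposite, partial or shared changes. Rcvrn, the photoreceptor protein recoverin (chr11:67695326-67703333), had 0 to 0.209 CPM of mRNA in YHSCs and 3.81 to 10.7 CPM in OHSCs, with libraries that did not overlap and the largest mRNA change near any called domain region (log2 fold change 5.97, edgeR adjusted p = 3.8e-08). Its called domain region, 37.4 kb upstream in an intron of Gas7, was lost (3.46 ± 0.725 to 2.05 ± 0.286 CPM, SD, n = 4), lay in a window with a regional shift and was not called once that was corrected (log2 fold change -0.38, adjusted p = 0.145). Il9r, the interleukin 9 receptor, fell in mRNA from 2.49 to 3.86 CPM to 0.133 to 0.487 CPM (log2 fold change -3.65, edgeR adjusted p = 2.38e-09), and a region 74.0 kb from its start was lost near the limit (log2 fold change -0.71, adjusted p = 0.00977) and lost that call in 9 alternative fits. Zfp53 had a lost region and more mRNA, by 0.56 on the log2 scale, below the fold threshold. Nr2f2, with 8 gained regions, had 0.544 to 1.51 CPM of mRNA in YHSCs and 0 to 1.34 CPM in OHSCs (edgeR adjusted p = 0.873), and Sox2 had too few reads to be tested. Adgra2 fell in both layers, with mRNA at 5.75 to 7.59 CPM in YHSCs and 1.58 to 2.91 CPM in OHSCs (log2 fold change -1.43, edgeR adjusted p = 7.44e-08).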

How the data were processed

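The authors trimmed ATAC-seq reads, aligned them to mm10 with BWA, kept unique de-duplicated reads outside the ENCODE blacklist, and deposited raw counts per consensus region. The sources used here do not give whether read ends were shifted for Tn5. The mRNA-seq was deposited by the authors as raw gene counts (STAR, featureCounts), from which 92 spike-ins were left out. For H3K27me3 the deposited signal per domain comes from libraries the authors scaled to 1 depth. Their H3K27me3 domains, peaks of H3K27ac and H3K4me3, and H3K36me3 domains were used as positions, and their fold changes and ratios were not used. In total, 8 columns of per-sample values had no listed sample and were not used.

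Overlaps were computed with bedtools 2.31.1. Counts were scaled with TMM and compared with edgeR 4.0.16 (robust quasi-likelihood, Benjamini-Hochberg) on all tested features in R 4.3.3, with DESeq2 1.42.0 as an alternative. Gene tests used the genes kept by filterByExpr, and gene calls needed more than 1.5-fold change with an adjusted p under 0.05. Places, strands and starts are those of protein-coding genes of GENCODE M21, promoters run from 1000 bp upstream to 100 bp downstream, and sequences were read from the GRCm38 FASTA of RefSeq. The sources used here do not give whether counting used strand. Coordinates of regions and domains are printed as deposited and those of sequence windows count from 1. On counts simulated for these comparisons with 200 features changed 2-fold, 84.5% were recovered with 2 false calls over 89245 regions and 66% with 4 false calls over 21522 genes. Counts below 3 reads, 0.114 to 0.194 CPM by library, are at the floor, and reads carry no molecular identifiers. Errors after ± are the SD of libraries. Standard errors of log2 fold changes were derived from the test, as the absolute change divided by the square root of the quasi-likelihood F statistic.

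The members and the gene lists were chosen with earlier results of these data known. Named regions are the 8 largest changes each way among called regions with separate libraries, the 3 with the highest mean CPM each way, and the 3 domains with the most called regions each way (ties by share called, then median change). Named genes are those nearest to them, up to 3 per list with the most called regions, and the 5 with the largest mRNA change. Of these, 1 region is not reported here.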

Additional observations from a re-analysis of the deposited data

Results flagged for a closer look

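In groups of 4 to 10 libraries, 10 of 208 had 1 library past Dixon's limit, where chance passes 1 in 20. None of these libraries was left out, and no explanation was tested.

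Among domain regions, the region near Lrtm1 in a Cacna2d3 intron had an old library at 2.43 CPM (replicate 6) with the next at 1.76 CPM. The Mllt3 region had the same old replicate at 4.82 CPM, the next being 3.44 CPM, and the call of that region was lost without it (log2 fold change 0.45). The more 5′ of the Gabra4 regions had a young library at 1.23 CPM (replicate 3), the next being 0.533 CPM, and the Osmr region a young library at 0.870 CPM (replicate 1), the next being 0.614 CPM. The Alpk2 region stood out at both ages, with young replicate 2 at 3.05 CPM (next 2.28 CPM) and old replicate 7 at 0.199 CPM (next 0.3 CPM).

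In mRNA, Csf1r was at 21 CPM in old replicate 3 (next 16.2 CPM), Myh3 at 1.52 CPM in old replicate 4 (next 0.612 CPM) and Tmem132b at 25.2 CPM in old replicate 1 (next 12.8 CPM). Syt9 was lowest in old replicate 2, at 1.97 CPM, with the next at 3.94 CPM.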

How the results depend on the processing

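The numbers of regions in H3K27me3 domains gained with age and regions in H3K27me3 domains lost with age stayed within 1.5 times of 1453 and 364 under DESeq2, size factors, scaling on the other regions, a filter on the mean, another adjusted p, stricter membership, the GC correction and the correction for the regional shift, which was chosen after seeing the data. Without a CPM filter 2284 gained and 703 were lost, and with a fold change above 2 the counts were 877 and 124. The GC correction turned the median log2 fold change from 0.049 to -0.011. Leaving out 1 ATAC-seq library gave 903 to 1391 gained, 223 to 403 lost and medians of 0.03 to 0.07. Without old replicate 5, 6 or 8 the gained counts were 945, 903 and 946, since 3 old libraries alone cannot pass a filter of 4, and without young replicate 1 the lost count was 223. Of 723 values for the 57 named regions, 687 kept their call, 36 over 9 regions lost it and 0 reversed.

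No paired analysis was possible because no replicate number occurs at both ages of the ATAC-seq. For mRNA-seq, same-numbered libraries did not deviate together (r from -0.225 to 0.037), and with the replicate block 46 genes near gains were higher and 17 lower, and 10 and 18 near losses. Under the block Tmem132b was not called (adjusted p = 0.122 by edgeR). Leaving out 1 mRNA library gave 45 to 57, 17 to 24, 8 to 11 and 22 to 26 genes. Ank3 was called without young replicate 2 (0.64) and Zfp53 without young replicate 3 (0.59). Within 20 kb, genes near gains were higher in 33 and lower in 10 cases, and higher near losses in 6. The median signal of domains with members was 0.484 without young replicate 1 and 0.476 without young replicate 2. At this depth 8927 domain regions were too weak for the test.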

Other observations

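Further groups of domain regions stood out by their counts, chosen after their values were seen and given without a test. Myo16, a myosin of the nervous system, had 10 gained among 23 tested domain regions as nearest gene, Ntm, a cell adhesion molecule, 9 of 23, and Arnt2, a bHLH-PAS transcription factor, 7 of 9, where 13.6% of all tested domain regions and 10.1% of all tested regions gained. A 139 kb domain at Wwtr1, which encodes the Hippo pathway co-activator TAZ, had 6 gains among 9 tested regions, with log2 fold changes of up to 2.50. Over the protocadherin clusters, a 315 kb domain had 6 gains of 8 and a 125 kb domain 6 of 9, with median log2 fold changes of 0.95 and 1.25. On the side of losses, a 90 kb domain near Hs3st3b1, a heparan sulfate sulfotransferase gene, lost 3 of 5 tested regions, and a 271 kb domain near Lmx1a and Rxrg 3 of 9. Both lie in the windows of chromosomes 11 and 1 where other accessible regions were lower in OHSCs.

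Of the 942 genes within 100 kb that were nearest to a called domain region, 24 were nearest to both a gain and a loss. The genes nearest to gained domain regions were the least expressed, with a median mRNA level of 0.864 CPM in YHSCs, against 1.61 CPM for genes nearest to lost and 1.38 CPM for genes nearest to uncalled domain regions.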
